A study of Rattus norvegicus with 8 samples.

Results

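The genes described here are 9 genes of the PI3K, AKT and FoxO signaling route: the docking protein gene Irs2, the PI3-kinase genes Pik3r1, Pik3ca and Pik3cd, the inhibitor gene Pik3ip1, the kinase genes Akt1 and Akt2, and the transcription factor genes Foxo1 and Foxo3. They were selected by gene name and were found on 12 of the 41012 probes of a rat array, among 35510 gene names. The names printed on the array gave 8 genes with 11 probes, with Foxo1 and Foxo3 under their older names. Pik3ip1 was found only through a synonym in the RefSeq gene table, on 1 probe.

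PI3-kinase is a lipid kinase that is recruited to activated receptors, often through docking proteins such as the insulin receptor substrates, and makes the membrane lipid that brings AKT to the plasma membrane. Active AKT phosphorylates FoxO transcription factors and keeps them out of the nucleus, so that FoxO target genes are transcribed when the route is quiet. In developing T cells this route carries signals from cytokine and antigen receptors, and the FoxO targets include genes of survival, homing and cell death.

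The samples were primary thymocytes, the immature T cells of the thymus, taken from male Sprague-Dawley rats whose adrenal glands had been removed, so that both groups lacked adrenal glucocorticoid at the time of isolation. The thymi of 3 animals were pooled for a preparation, and the cells were cultured for 6 h with no added hormone (Control, 4 arrays) or with dexamethasone at 100 nM, a synthetic glucocorticoid that triggers apoptosis of thymocytes (Dex, 4 arrays). The methods give 3 biological replicates, whereas 4 arrays per group were analyzed here, and the labels do not say which arrays share a preparation, so the p-values measure the spread between these arrays. Expression was measured on 1-color 60-base oligonucleotide arrays and is given as the quantile-normalized log2 signal. A difference of 1 on this scale is a doubling of signal, and levels of different probes were not set against each other as amounts of transcript.

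The arrays carried 24903 to 34473 probes well above background, with the lowest numbers on Dex 2, Dex 1 and Control 1. Control 1 and Dex 3 shared a slide, the other Control arrays lay on another slide and the other Dex arrays on the remaining one, so group and slide could be separated only on that shared slide. Of 10 genes known to respond to glucocorticoids, 6 passed the test upward, of which Nfkbia was lost when replicate number was blocked (limma adjusted p = 0.0673), with 5 left. Of 10 double positive thymocyte markers on the array, all were well above background on every array that measured them, and 0 passed limma's test (3 at an unadjusted p of 0.05). The summed intensity of the 9 without Cd8b, which had no value on Control 1, was 172000 to 214000 in Control and 143000 to 191000 in Dex. The summed intensity of 9 macrophage markers was 4450 to 6160 in Control and 4290 to 8770 in Dex, that of 8 stromal markers was 3770 to 5300 and 4700 to 6520, that of 4 B cell markers was 118 to 180 and 112 to 236, and that of 4 erythroid markers was 355 to 1410 and 365 to 2540. The mean was higher in Dex for 5 of the 9 macrophage, 7 of the 8 stromal, 3 of the 4 B cell and 4 of the 4 erythroid markers. An unadjusted p under 0.05 by limma was found for 2, 1, 0 and 0 of them. The 2 macrophage markers were C1qb (log2 fold change 0.84) and C1qc (0.97). Among these 4 lists, the endothelial marker Pecam1 was the 1 gene that passed limma's test (adjusted p = 0.0208, log2 fold change 1.36, and adjusted p = 0.108 with the replicate block), the fibroblast marker Dcn was not well above background on any array, and the part of other cells in the results below was not tested. In these bulk samples, fewer cells of a type and less RNA per cell cannot be told apart.

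The sequences below show which stretches of transcript the results rest on. The first 30 bases of the probe are printed, with the position of the whole probe in build rn3, for Pik3r1 and Pik3ip1, which passed the test, and for Foxo1, which differed most between replicates.
Pik3r1, chr2:32526788-32526847 on the minus strand: tttcaagaaaaaagtcgggaatatgataga
Pik3ip1, chr14:83985679-83985738 on the plus strand: gagctacattttgtgttgtggttaaaacct
Foxo1, chr2:141151703-141151762 on the plus strand: aaagagttgctgacttctgactctcctccc

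Dexamethasone was followed by higher signal of both regulators of PI3-kinase activity among the 9 genes, Pik3ip1 and Pik3r1, while the catalytic subunits, the AKT kinases and the FoxO factors did not pass the test. Irs2, represented by its brightest probe, did not pass either, but 1 of its other 3 probes did. Pik3ip1 was 5.43-fold and Pik3r1 2.26-fold higher in Dex. These 2 of 9 genes passed limma's test at an adjusted p of 0.05 upward, and 0 passed downward, with 3 below an unadjusted p of 0.05. With the replicate number as a block 1 of the 9, Pik3ip1, passed, against 0.198% of all probes, and Pik3r1 did not (limma adjusted p = 0.168). Of all 41012 probes, 0.563% passed upward and 0.215% downward, 0.778% in either direction, and 10.6% had an unadjusted p under 0.05. The groups did not overlap for 3 of the 9 genes, Pik3ip1, Pik3r1 and Akt1, against 9.11% of all probes. The median log2 fold change of the 9 genes was 0.02, and that of all probes was 0.00.

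**Figure D1:**
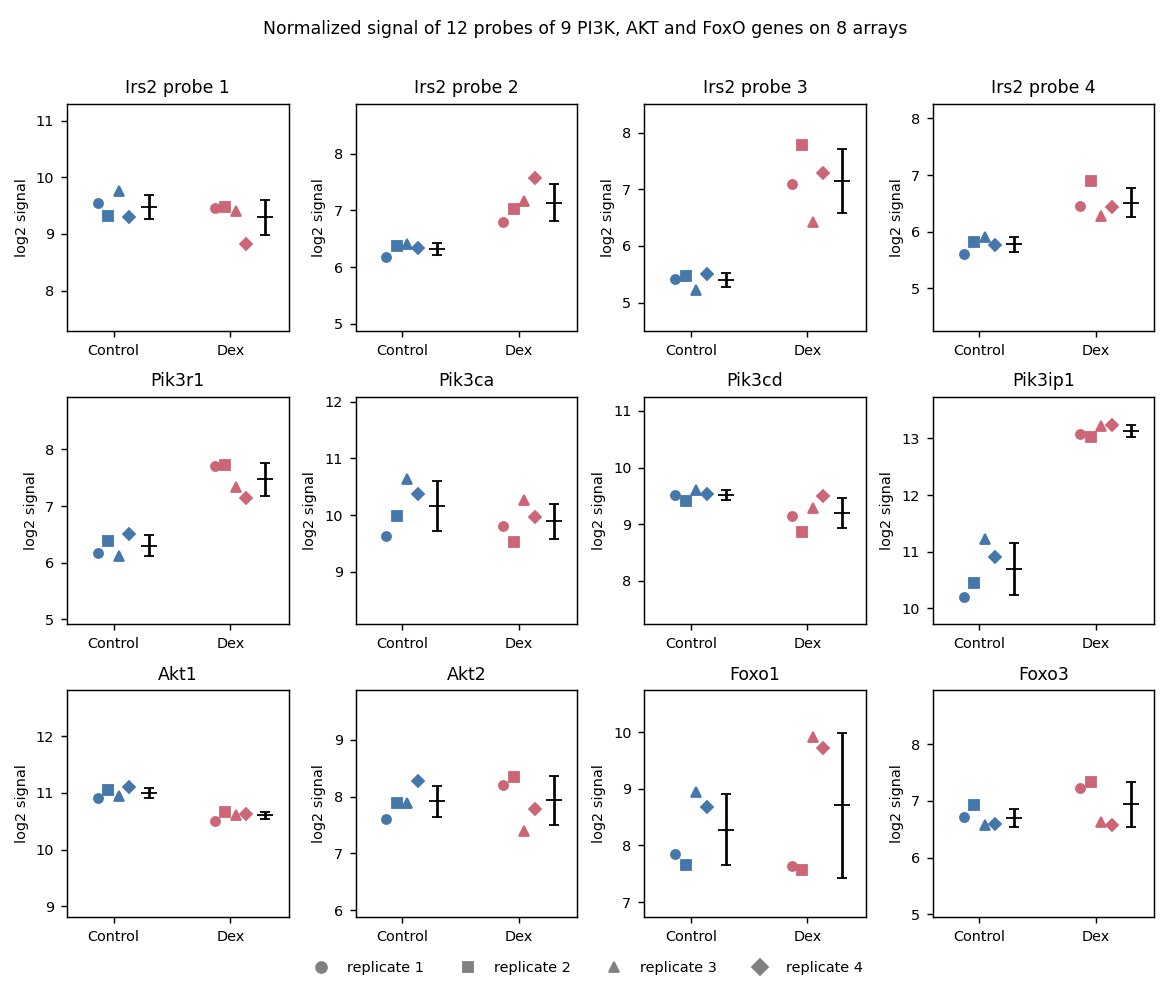
Normalized log2 signal (y axis, each panel spanning 4 log2 units) of 12 probes of 9 genes in Control (blue) and Dex (red), with the symbol giving the replicate number and the black bar the mean ± SD of 4 arrays. The groups lie apart for Pik3ip1, Pik3r1 and 3 of 4 Irs2 probes, with Dex higher, and for Akt1, with Dex lower, whereas the Foxo1 values divide by replicate number.

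Pik3ip1 encodes a transmembrane protein that binds the catalytic subunit of PI3-kinase and lowers its activity, and it showed the largest difference of the 9 genes. Its signal was 10.21, 10.45, 11.22 and 10.91 on Control arrays 1 to 4 and 13.08, 13.02, 13.21 and 13.24 on Dex arrays 1 to 4. Every Dex array stood above every Control array, and the Control arrays were spread more widely, with an SD of 0.45 against 0.11 in Dex (n = 4 each). Dex minus Control was 2.44 (log2, SE 0.24, 95% interval 1.90 to 2.98, limma adjusted p = 0.00413). With the replicate number as a block, the limma adjusted p was 0.0415. The test was passed in 8 of 8 fits that left out 1 array, with log2 fold changes of 2.28 to 2.61. On the shared slide Dex 3 exceeded Control 1 by 3.00, and with slide as a fixed block, a fit that rests on this single pair, the limma adjusted p was 0.231, the highest over the alternatives, which began at 6.0e-04.

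Pik3r1 encodes the regulatory subunit that stabilizes the catalytic subunit and docks it to phosphorylated receptors. Its signal was 6.18, 6.39, 6.12 and 6.51 on Control arrays 1 to 4 and 7.71, 7.72, 7.33 and 7.14 on Dex arrays 1 to 4. All Dex arrays were higher than all Control arrays. The log2 fold change was 1.17 (SE 0.19, 95% interval 0.73 to 1.62, limma adjusted p = 0.0409), close to the threshold. The call was lost with the replicate number as a block (limma adjusted p = 0.168) and in all 8 fits that left out an array, in which the log2 fold change stayed at 1.09 to 1.29. Correcting the background with normexp gave a smaller log2 fold change of 0.68, which passed (limma adjusted p = 0.0154). Over the alternatives the limma adjusted p of Pik3r1 ran from 0.00497 to 0.771.

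The catalytic subunits Pik3ca and Pik3cd, the lipid kinases proper, were not distinguishable between the groups. Pik3ca had a signal of 9.64, 9.98, 10.64 and 10.37 in Control and 9.81, 9.52, 10.27 and 9.97 in Dex, in the order of the replicates. These ranges overlapped, and the log2 fold change was -0.26 (95% interval -0.87 to 0.34, limma adjusted p = 0.787), or -0.44 (without Control 1) to -0.10 (without Control 3) with 1 array left out. On the shared slide alone its direction was the opposite, with Dex 3 above Control 1 by 0.63. Pik3cd, the subunit known for its role in leukocytes, had 9.51, 9.41, 9.61 and 9.54 in Control and 9.14, 8.87, 9.28 and 9.50 in Dex. It was lower in Dex within each of the 4 replicate numbers, by 0.37, 0.54, 0.32 and 0.04, but Dex 4 lay within the Control range. Over all arrays Pik3cd differed by -0.32 on the log2 scale (95% interval -0.72 to 0.08, limma adjusted p = 0.593).

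Both catalytic subunit probes match the genome over more than their own length (chr2:118606178-118607660 and chr5:166748407-166748804 in rn3) and so cross an exon junction. The array holds a further probe at the Pik3ca position under the name LOC685605, which was not a member by name. Both probes are printed whole because they share most of their sequence, the first 31 bases and a further run of 19, both in capitals, around different joins.
Pik3ca: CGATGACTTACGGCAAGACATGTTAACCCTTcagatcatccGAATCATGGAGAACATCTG
LOC685605: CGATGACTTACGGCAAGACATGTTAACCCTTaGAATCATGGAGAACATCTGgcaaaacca
The LOC685605 probe had a log2 fold change of -0.26 as well (95% interval -0.78 to 0.26, limma adjusted p = 0.754). With 50 of 60 bases in common, the pair is not an independent measurement.

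Irs2 encodes a docking protein that links insulin, growth factor and cytokine receptors to PI3-kinase, and its 4 probes gave different answers. They are numbered by mean signal over the 8 arrays, and the first 30 bases of each are printed with the position of the whole probe in rn3, to show that they target separate places on chromosome 16.
Irs2 probe 1, chr16:83389667-83389726 on the plus strand: ttacgtccttaatttagtttacagaatgga
Irs2 probe 2, chr16:83368548-83368607 on the plus strand: tctacccactgagcccaagagccctggcga
Irs2 probe 3, chr16:83367721-83367780 on the plus strand: gactatggagacattgagattggttctcac
Irs2 probe 4, chr16:83369128-83369187 on the plus strand: ttgaggcggctaagtctcatggatcaggta
Probes 2, 3 and 4 lie 20539 to 21946 bases from probe 1, and the array's annotation assigns these 3 probes to 1 predicted transcript and probe 1 to another. The exons they fall in were not analyzed here.

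Irs2 probe 1, which stands for the gene in the counts above as its brightest probe, had a signal of 9.54, 9.32, 9.75 and 9.30 in Control and 9.45, 9.48, 9.41 and 8.83 in Dex. The groups overlapped, and Dex 4 lay below the other arrays. Probe 1 differed by -0.19 (log2 fold change, 95% interval -0.65 to 0.28, limma adjusted p = 0.808). Probe 3 had 5.41, 5.46, 5.22 and 5.50 in Control and 7.09, 7.78, 6.43 and 7.29 in Dex. Here every Dex array was higher. Its log2 fold change of 1.75 (SE 0.28, 3.37-fold) passed limma's test (adjusted p = 0.0361), but not with the replicate block (limma adjusted p = 0.0982), and with 1 array left out it passed in 1 of 8 fits, at 1.54 to 1.99. With normexp background correction the log2 fold change of probe 3 was 0.87 (limma adjusted p = 0.0381), and over the alternatives the limma adjusted p ran from 0.00431 to 0.771.

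Probes 2 and 4 of Irs2 also lay higher on all Dex arrays, without passing the test. Probe 2 had 6.18, 6.37, 6.40 and 6.33 in Control and 6.79, 7.02, 7.17 and 7.57 in Dex, which is a difference of 0.82 (limma adjusted p = 0.139). Probe 4 had 5.61, 5.81, 5.91 and 5.77 in Control and 6.45, 6.89, 6.28 and 6.44 in Dex, which is a difference of 0.74 (limma adjusted p = 0.143). With normexp background correction the log2 fold changes were smaller, at 0.44 for probe 2, 0.36 for probe 4 and -0.14 for probe 1. Relative to probe 1, the shift from Control to Dex was 1.00 for probe 2, 1.94 for probe 3 and 0.93 for probe 4. These shifts are a description, chosen after the probe values had been seen.

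**Figure D2:**
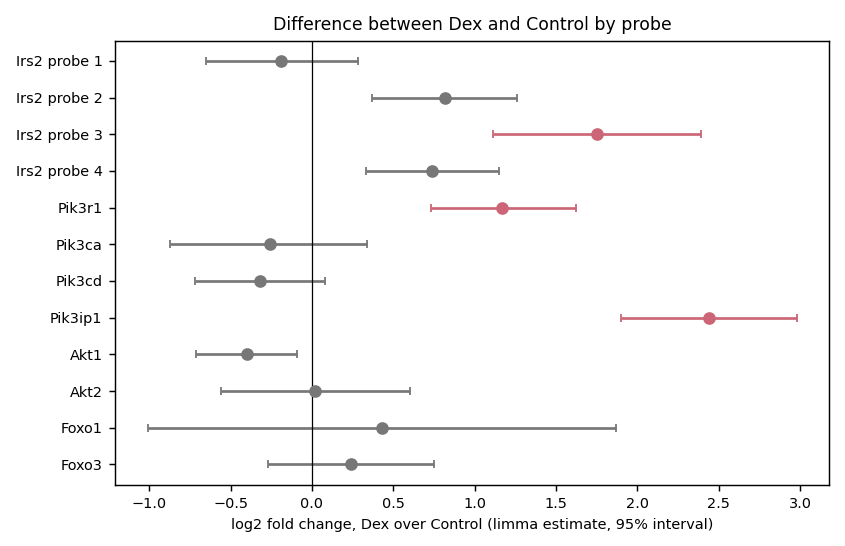
Log2 fold change of Dex over Control (x axis) for each of the 12 probes, as the limma estimate with its 95% interval from 8 arrays, with probes that passed an adjusted p of 0.05 in red. Pik3ip1, Irs2 probe 3 and Pik3r1 passed, and the interval of Foxo1, from -1.01 to 1.87, is the widest.

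Akt1 and Akt2 encode the serine-threonine kinases that act downstream of the PI3-kinase lipid. Akt1 was measured by 10 spots of 1 probe, with a signal of 10.91, 11.05, 10.94 and 11.11 in Control and 10.51, 10.67, 10.61 and 10.63 in Dex. All Dex arrays were lower, and within both groups the arrays lay close together (SD 0.09 and 0.07, n = 4 each). The log2 fold change of -0.40 (SE 0.14), a 1.32-fold lower signal, did not pass limma's test (adjusted p = 0.330). It passed with normexp background correction, at -0.37 (limma adjusted p = 0.0354, the lowest over the alternatives, which reached 0.837).

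Akt2 did not differ in one direction. Its signal was 7.61, 7.89, 7.89 and 8.27 in Control and 8.21, 8.35, 7.40 and 7.78 in Dex, which is a log2 difference of 0.02 (95% interval -0.56 to 0.60, limma adjusted p = 0.985). In replicates 1 and 2 Dex exceeded Control by 0.61 and 0.46, and in replicates 3 and 4 it was lower by 0.49 and 0.49. On average Dex minus Control was 0.53 in replicates 1 and 2 and -0.49 in replicates 3 and 4, and the difference between these pairs of replicates was not tested.

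Foxo1 and Foxo3 encode the transcription factors that AKT restrains, and Foxo1 is known in T cells for its control of Il7r and of homing receptors. Foxo1 signal was 7.84, 7.65, 8.94 and 8.67 in Control and 7.63, 7.56, 9.91 and 9.72 in Dex. The values divided by replicate number rather than by treatment, with all arrays of replicates 1 and 2 below all arrays of replicates 3 and 4. The log2 fold change over all arrays was 0.43 with an SE of 0.63 (limma adjusted p = 0.862), the largest SE of the 12 probes. With 1 array left out it ran from 0.03 without Dex 3 to 0.82 without Dex 2. Within replicates 1 and 2 it was -0.14, within replicates 3 and 4 it was 1.01, and on the shared slide Dex 3 exceeded Control 1 by 2.07, a pair of different replicate numbers. What sets replicates 1 and 2 apart from 3 and 4 is not given in the sources used here.

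Foxo3 had a signal of 6.71, 6.92, 6.57 and 6.60 in Control and 7.23, 7.33, 6.62 and 6.58 in Dex. Dex 1 and Dex 2 were higher than every Control array, whereas Dex 3 and Dex 4 lay within the Control range. The log2 fold change was 0.24 (95% interval -0.27 to 0.75, limma adjusted p = 0.769), with 0.46 within replicates 1 and 2 and 0.02 within replicates 3 and 4. With 1 array left out it was 0.11 (without Dex 2) to 0.36 (without Dex 4). Foxo1 and Foxo3 thus had their higher Dex values in opposite replicates, a difference that was not tested.

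**Figure D3:**
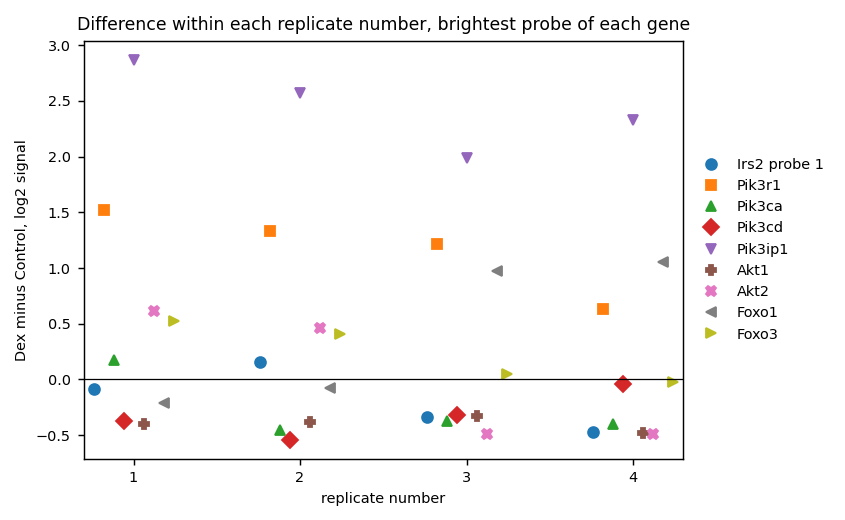
Dex minus Control in log2 signal (y axis) within each replicate number (x axis) for the brightest probe of each of the 9 genes, with each point from 1 Dex and 1 Control array. Pik3ip1 (1.99 to 2.87) and Pik3r1 (0.63 to 1.52) lie above 0 and Akt1 (-0.48 to -0.33) below 0 at every number, while Akt2 and Foxo1 change sign between replicates 1 and 2 and replicates 3 and 4.

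Other genes of the route were taken from 5 lists with 85 genes, of which 78 were on the array. Of these 78, 5 passed limma's test, all upward, against 0.778% of all probes in either direction. An unadjusted p under 0.05 was found for 17 of the 78, against 10.6% of all probes. The median log2 fold change of the 78 genes was 0.05. With the replicate number as a block 0 of them passed limma's test, against 0.198% of all probes. In that fit 18 had an unadjusted p under 0.05, against 12.4% of all probes.

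Among receptors and docking proteins 1 of 13 passed, upward, and 0 downward. This was Il7r, the alpha chain of the IL-7 receptor, with 5.08, 4.90, 5.06 and 5.18 in Control and 7.20, 7.08, 6.21 and 6.21 in Dex. The Dex arrays all stood higher, and replicates 1 and 2 more so. Il7r rose by 1.62 on the log2 scale (SE 0.27, limma adjusted p = 0.0410), and the median of the list was 0.04. Irs1, the docking protein most like Irs2 and named here after its values were seen, had the largest difference of the list without passing. Its signal was 2.56, 3.50, 2.23 and 2.31 in Control and 6.31, 6.24, 3.96 and 3.42 in Dex, so that Dex 4 fell below Control 2, and it was well above background on 5 of the 8 arrays. Dex minus Control was 2.33 for Irs1 (SE 0.71, limma adjusted p = 0.263, with 0.208 under the replicate block), and it passed with a block for replicates 1 and 2 or 3 and 4 (limma adjusted p = 0.0455).

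Of 31 further FoxO factors and known FoxO targets, 4 passed upward and 0 downward, against 0.563% and 0.215% of all probes. With the replicate number as a block 0 of the 31 passed, against 0.198% of all probes. A higher mean in Dex was found for 20 and a lower one for 11, and the median log2 fold change was 0.17. The groups did not overlap for 11 of the 31, 9 of them with Dex higher, against 9.11% of all probes. This is a description, as the list was chosen with earlier results of these data known. All probes also include dim ones, whereas 27 of the 31 were well above background on every array. Rag1 and Rag2 of this list are also double positive thymocyte markers. Sesn1 and Sesn3 encode sestrins, stress-induced proteins that restrain mTOR signaling. Sesn1 rose from 11.20, 11.27, 11.27 and 11.28 in Control to 12.47, 12.60, 12.58 and 12.49 in Dex. Its arrays lay close together within each group, and the log2 fold change was 1.28 (SE 0.13, limma adjusted p = 0.00543). Sesn3 rose by 0.98 (SE 0.16, limma adjusted p = 0.0410) and passed on 2 of 2 probes.

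Bcl2l11, which encodes the cell death protein Bim, had 5.73, 5.10, 5.30 and 5.47 in Control and 7.11, 7.66, 6.85 and 7.05 in Dex. It was 3.41-fold higher in Dex (log2 fold change 1.77, SE 0.23, limma adjusted p = 0.0142), with no overlap between the groups. Gadd45a, a growth arrest and DNA damage gene, rose by 0.83 (SE 0.14, limma adjusted p = 0.0484). The limma adjusted p with the replicate block was 0.121 for Bcl2l11, 0.0770 for Sesn1, 0.140 for Sesn3, 0.195 for Gadd45a and 0.160 for Il7r. These genes also answer to regulators other than FoxO, and their change is not a measure of FoxO activity.

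**Figure D4:**
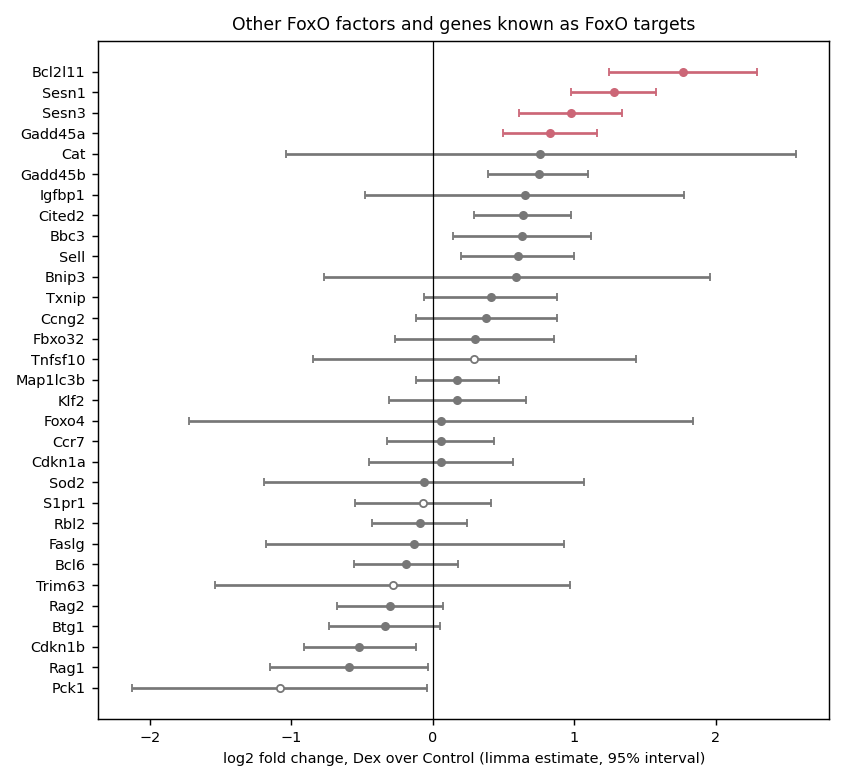
Log2 fold change of Dex over Control (x axis, limma estimate with 95% interval, 8 arrays) for 31 further FoxO factors and genes known as FoxO targets, ordered by value, with genes that passed an adjusted p of 0.05 in red and open circles for probes not well above background on every array. Bcl2l11, Sesn1, Sesn3 and Gadd45a head the order, and 11 of the 31 genes lie below 0.

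In the other 3 lists 0 genes passed limma's test. Of 16 AKT relays, which had a median log2 fold change of -0.07, 3 had an unadjusted p under 0.05. The 2 with the smallest p were Sgk1, an AKT-related kinase that also phosphorylates FoxO factors and is one of the 10 glucocorticoid-responsive genes above, and Pdpk1, the kinase that activates AKT. Sgk1 had 11.70, 11.52, 12.37 and 12.19 in Control and 10.91, 10.57, 10.53 and 10.50 in Dex, so that all Dex arrays were lower. Its log2 fold change was -1.32 (SE 0.23), just outside the threshold (limma adjusted p = 0.0503). With a block for replicates 1 and 2 or 3 and 4 Sgk1 passed (limma adjusted p = 0.0365), and with the replicate block it did not (limma adjusted p = 0.188). Pdpk1 was also lower on all Dex arrays, by -0.42 on the log2 scale (limma adjusted p = 0.305).

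Of 7 lipid and AKT phosphatases, 1 had an unadjusted p under 0.05, and the median log2 fold change was 0.04. This was Inpp4a, which removes a phosphate from a product of the PI3-kinase lipid, at -0.47 (limma adjusted p = 0.463). Inpp5k, a phosphatase of the lipid itself, followed with 0.45 (limma adjusted p = 0.529). Of 11 further PI3-kinase subunits and adaptors, 0 had an unadjusted p under 0.05 by limma, with a median of -0.02. The smallest p in this list was that of Pik3c2g (limma adjusted p = 0.723), which was not well above background on any array, followed by Pik3r3 (limma adjusted p = 0.762), above background on 2 arrays.

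The genes whose profile over the 8 arrays was most like that of the members that passed were sought among 10233 candidates, by the root mean square difference of log2 values after each profile's mean was removed. Nearest to Pik3r1 were the sorting nexin gene Snx25 (0.13), the Integrator subunit gene Ints6 (0.15) and the phosphofructokinase gene Pfkp (0.15). The log2 fold changes of these genes were 0.99, 1.12 and 1.18. Ints6 and Pfkp passed limma's test (adjusted p = 0.0376 and 0.0185), and Snx25 did not (limma adjusted p = 0.0822). With the replicate block none of them passed (limma adjusted p = 0.202 for Snx25, 0.160 for Ints6 and 0.120 for Pfkp). Nearest to Pik3ip1 were the triglyceride lipase gene Pnpla2 (0.26), the transcription factor gene Klf9 (0.27) and the methionine adenosyltransferase gene Mat2a (0.32), with log2 fold changes of 2.29, 2.45 and 2.24. All of them passed limma's test, also with the replicate block (limma adjusted p = 0.0391, 0.0284 and 0.0317). Fold changes close to those of the members follow from choosing genes by profile.

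Promoters were in the RefSeq table (build GRCr8) for 7 of the 9 genes, not for Irs2 and Foxo3. Each holds 250 bases before and 50 after a gene's start. Pik3ip1 and Pik3r1, the members that passed, are printed from 250 bases before to 30 after the start, with motif matches in capitals. The motifs searched, on both strands, were the FoxO site GTAAACA and, as the site bound by the glucocorticoid receptor, its half-site AGAACA.
Pik3ip1 promoter, chr14:82428065-82428344 on the plus strand: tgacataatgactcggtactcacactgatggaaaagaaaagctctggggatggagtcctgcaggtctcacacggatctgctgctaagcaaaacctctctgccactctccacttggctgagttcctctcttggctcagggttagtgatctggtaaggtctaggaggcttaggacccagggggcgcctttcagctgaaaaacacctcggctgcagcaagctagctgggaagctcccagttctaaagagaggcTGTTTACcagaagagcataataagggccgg
Pik3r1 promoter, chr2:34697631-34697910 on the minus strand: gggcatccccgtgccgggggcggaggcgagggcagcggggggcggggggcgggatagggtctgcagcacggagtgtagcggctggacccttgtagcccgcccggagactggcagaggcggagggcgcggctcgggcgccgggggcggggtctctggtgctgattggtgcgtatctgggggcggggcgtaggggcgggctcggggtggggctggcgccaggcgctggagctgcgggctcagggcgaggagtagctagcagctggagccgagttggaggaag
The Pik3ip1 window holds 1 FoxO match, as the reverse complement, in bases 1 to 7 after the start, and 0 glucocorticoid half-sites, and the Pik3r1 window holds neither. Over the whole window the FoxO site was found for 2 of the 7 members, Pik3ip1 and Pik3ca, and in 3.8% of 33469 promoters. Before the start alone it was found for 1 of the 7, Pik3ca, at bases 157 to 151, and in 3.2% of promoters. The half-site was found for Akt2, Pik3ca and Pik3cd, 3 of the 7, and in 20.7% of promoters. These matches do not overlap each other. They describe letters in a window and do not show binding. The bases after the start of the Pik3ca window open with ATG, as a coding sequence does. That window may therefore surround the coding start rather than a promoter, so its matches may not be promoter matches. Whether the start of each window is that of a transcript was not tested.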

How the data were processed

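Cy3-labeled RNA had been hybridized to 1-color Agilent Whole Rat Genome arrays. The deposited intensity is the processed signal of Feature Extraction version 9.5.3.1 (build rn3), which subtracts background within the array, and its deposited 0 or 1 flags mark saturation, outliers and signal well above background. The series table of the authors holds log2 values, quantile normalized and summarized by median polish. These steps were recomputed here without outlier spots (16 values missing over 41012 probes), and the results differed from the deposited ones by a median of at most 0.00158. The number of arrays limits the precision.

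Control and Dex were compared with limma (version 3.58.1, R version 4.3.3; lmFit, eBayes), two-sided and without a block, and p was adjusted by Benjamini-Hochberg across every probe, at a threshold of 0.05. The 3 slides, 75th percentile scaling, normexp (offset 50), the dim-probe filter, the deposited table, the replicate number, the methods' signal to noise statistic (nominal p of 0.01, fold of 1.2, over 70 assignments), the mean over a gene's probes and each array's omission were alternatives. The deviations of same-numbered arrays from their group means correlated at 0.397, 0.129, 0.55 and 0.184. Some arrays of different numbers correlated as well, Control 1 and Dex 2 at 0.401 and Control 3 and Dex 4 at 0.392. Whether the numbers mark pairs is therefore not settled. The main test took no pairs, and the replicate number as a block was an alternative.

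The brightest probe stood for a gene. Every member was named, with the list genes that passed or, in a list with none, the 2 with the smallest p, and the 3 nearest profiles of each member that passed. Members and lists were chosen with earlier results of these data known. Scripts were tested on simulated data.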

Additional observations from a re-analysis of the deposited data

Results flagged for a closer look

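Irs2 probe 1 was singled out for a sample far from the others in its group. Dex 4 had a signal of 8.83 against 9.41 to 9.48 on the other Dex arrays, a gap of 0.881 of the group's range, beyond Dixon's critical value at the 95% level. It was the 1 such case among 24 groups of 4 arrays, and chance gives about 1 in 20. Without Dex 4 the log2 fold change of the probe was -0.03, and the probe did not pass in any fit.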

How the results depend on the processing

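Of the 9 members, 1 passed with the replicate block, 0 with slide as a fixed block (limma, 2 at an unadjusted p of 0.05, against 4.34% of all probes), 1 to 1 with 1 array left out, and 1 when only the names on the array were used. Restricted to replicates 1 and 2 it was 1, and to replicates 3 and 4 it was 0 (limma, 4 at an unadjusted p of 0.05, against 31.9% of all probes); these restrictions and the naming were added after the data had been seen. With normexp or the signal to noise statistic 3 passed, Akt1 being the additional one. The signal to noise counts, here and in the next sentences, use a nominal p of 0.01 and a fold of 1.2. They are not comparable with the counts at an adjusted p of 0.05. Of the 78 list genes 5 passed, against 2 with 75th percentile scaling, 9 with normexp, 0 with the replicate block (limma, 18 at an unadjusted p of 0.05), 0 with slide fixed (limma, 4 at an unadjusted p of 0.05, again against 4.34% of all probes), 12 with slide random, 12 with signal to noise, 1 to 3 with 1 array left out, 1 in replicates 1 and 2 and 0 in replicates 3 and 4 (limma, 26 at an unadjusted p of 0.05). Of all probes 319 passed, against 166 with 75th percentile scaling, 915 with normexp, 562 without dim probes, 81 with the replicate block, 670 with a block for replicates 1 and 2 or 3 and 4, 1 with slide fixed, 1838 with slide random, 2784 with signal to noise, 96 (without Control 4) to 249 (without Dex 3) with 1 array left out, and 0 in replicates 3 and 4 (limma, 13073 at an unadjusted p of 0.05). The direction turned for Akt2 with slide fixed (-0.20), in replicates 3 and 4 (-0.49) and with 1 array left out (-0.11 to 0.20, lowest without Dex 2), for Foxo1 in replicates 1 and 2 (-0.14), for Foxo3 (-0.09) and Pik3ca (0.63) with slide fixed, and for Irs2 in replicates 1 and 2 (0.03) and as the mean over its probes (0.78). None of these was past the threshold, and the causes were not tested. Every alternative fitted to Pik3ip1 and Pik3r1 kept their direction.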
